A study of Gossypium barbadense with 4 samples.

Results

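Expansins and xyloglucan transglycosylases are the 2 protein families through which a growing plant cell lets its wall yield. An expansin binds between cellulose and the hemicelluloses that tether it and loosens their hold without cutting either, and it works best in an acid wall. A xyloglucan endotransglycosylase (XET), also called an endo-xyloglucan transferase, cuts a xyloglucan tether and joins the cut end to another chain, so that the wall can extend without falling apart. In cotton both families are known from the ovule, whose outer epidermal cells start to grow out into fibres around anthesis, and alpha-expansins are also known from floral organs that extend quickly.

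Members were chosen by their product description. A probe set of the array was taken when the description that the study gave to its GenBank sequence held the word expansin or xyloglucan. The rule matched 11 GenBank sequences, of which 9 could be tied to a probe set, 5 described as alpha-expansins and 4 as xyloglucan transglycosylases, out of 24029 probe sets on the array. The other 2 sequences (AI728493 and DW498116) had no probe set in the lists held and were left out. Of the 9 probe sets, 7 can be hit by more than 1 transcript of a gene or gene family, so close paralogues and the copies of a gene from both cotton subgenomes may share a signal. Only the XETs DT459646 and CO073294 have probe sets designed for a single transcript.

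Expression was measured in flowers of 2 genotypes of Pima cotton (Gossypium barbadense) at 0 days post-anthesis (DPA), the day on which the flower opens. Pima 57-4 is a doubled haploid, naturally arisen semigametic mutant of the obsolete, non-semigametic cultivar Pima S-1, and in semigamy the sperm enters the egg but the 2 nuclei do not fuse. The groups are anthers of 57-4 and anthers of Pima S-1, and ovules of 57-4 and ovules of Pima S-1. All plants were started in a greenhouse and moved to the field, and no group received a treatment. Each group is 1 Affymetrix Cotton Genome array, hybridized with a pool of RNA from 3 biological replicates of 10 flowers each, and 57-4 is a single line. The genotype comparison within a tissue therefore has no replicate check, and its values are given without a test. In this bulk tissue, fewer cells of a type and less RNA per cell cannot be told apart.

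Values are MAS5 signals, a linear measure of the brightness of a probe set. Signals of different probe sets are not set against each other, since each probe set has its own brightness, so paralogues are compared by their ratios between tissues and genotypes. Signals under 50 were set to 50 before log2 ratios were taken, a fold with 1 signal under 50 is a lower bound, and none is given with both under 50. At 50 or above were 8 members for 57-4 and 9 for Pima S-1 in anthers, against 8 for 57-4 and 7 for Pima S-1 in ovules. The 3' to 5' signal ratio of the control transcripts, a measure of RNA integrity and labelling, was 11.7 to 21.1 on the 57-4 arrays and 4.18 to 11.8 on the Pima S-1 arrays, and higher in 57-4 in 6 of 6 pairs. The 57-4 arrays were also the brighter ones for the 9 bacterial and phage controls added before hybridization, by a median of 0.47 on the log2 scale in the anther pair and 0.42 in the ovule pair. The part of these differences in the genotype ratios was not tested. Of 15 probe sets described by the study as fibre or E6 proteins, 12 were at 50 or above for 57-4 and 14 for Pima S-1 in anthers, against 14 on each ovule array. Their summed signal was 13425 for 57-4 and 12831 for Pima S-1 in anthers, against 18212 for 57-4 and 27213 for Pima S-1 in ovules, and fibre protein Fb9 (CA992712) alone gave 9415 for 57-4 and 7511 for Pima S-1 in anthers, against 13555 for 57-4 and 20079 for Pima S-1 in ovules. Of the 15, 11 were lower in 57-4 anthers, and of the 14 measured in ovules 14 were lower in 57-4. Lower were 49.8% of all measured probe sets in anthers and 44.2% in ovules, but 72.1% and 83.8% of those the study described. These 15 are known by a description only through the study's lists of genes called between the genotypes, so nothing is read from their direction. By a limma fit of tissue over the 4 arrays, 0 of the 15 were higher in anthers and 4 in ovules. Of all probe sets tested, 8.42% were higher in anthers and 7.39% in ovules. By the sign of the ratio alone, 10 of the 15 were brighter in ovules and 5 in anthers. One of these 5 was E6-4, a fibre protein, whose difference did not pass the test (adjusted p 0.12, limma). It was at 177 in 57-4 and 246 in Pima S-1 on the anther arrays, and at 91.1 in 57-4 and 128 in Pima S-1 on the ovule arrays. No anther or pollen marker was among the descriptions, so the anther label could not be checked.

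**Figure D1:**
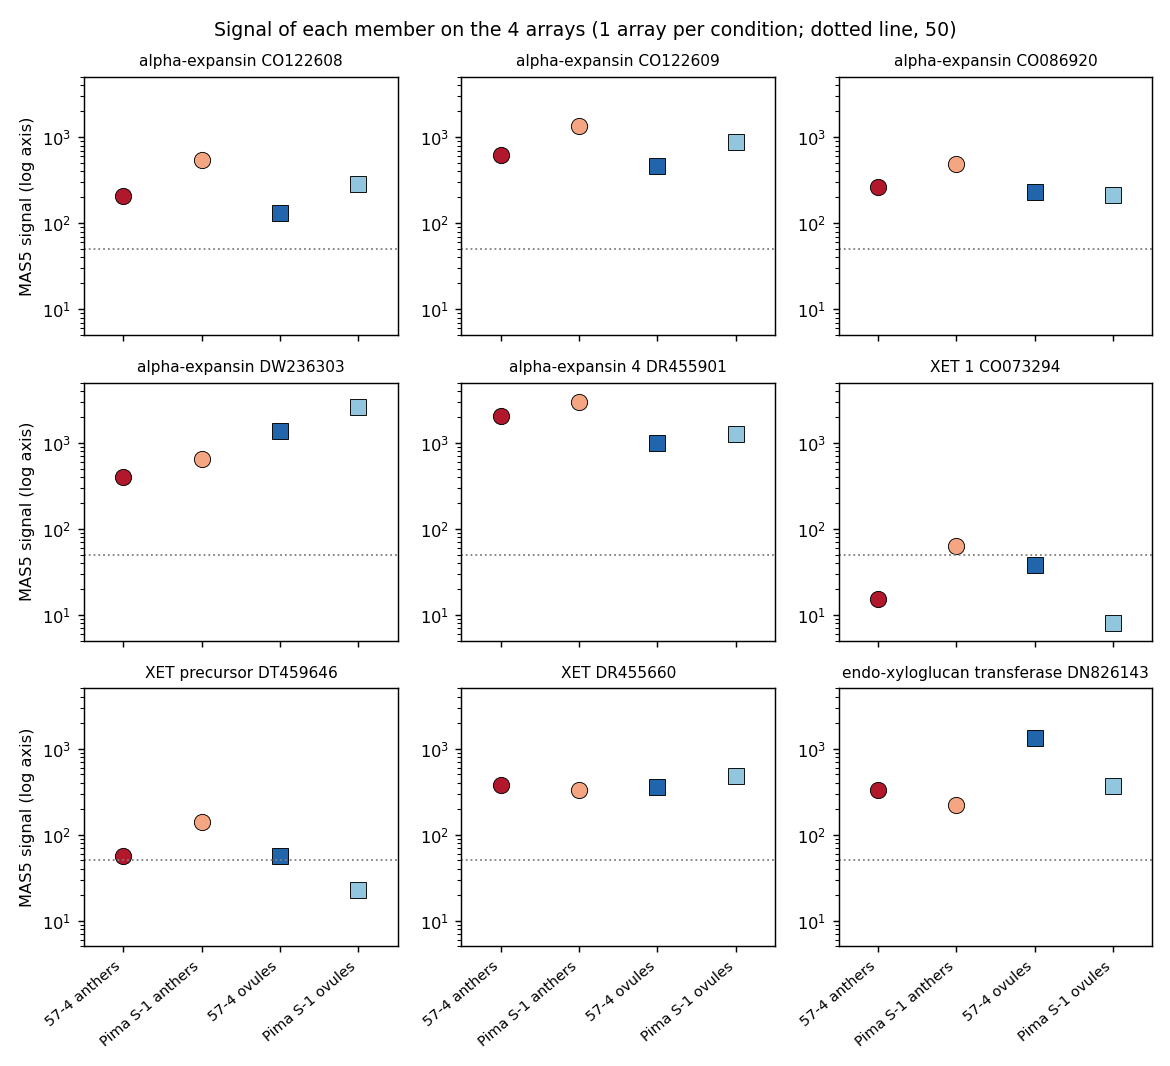
Signal of each of the 9 members on the 4 arrays, 1 array per point, on a log axis, with 57-4 as dark and Pima S-1 as light symbols, anthers as circles and ovules as squares, and the dotted line at a signal of 50. Alpha-expansin DW236303 and the endo-xyloglucan transferase DN826143 are brightest in ovules, alpha-expansin 4 (DR455901) is brightest in anthers, and 2 of the XETs lie near or under 50.

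The paralogues differed in the tissue that held their higher signal. Of the 5 alpha-expansins, 1 was higher in anthers and 1 was higher in ovules by a limma fit over the 4 arrays, and of the 4 xyloglucan transglycosylases 1 was higher in ovules. In that fit, with tissue and genotype as terms, the arrays of the 2 genotypes stand in for replicates of a tissue, which leaves 1 residual degree of freedom per probe set. Over all 17179 probe sets tested, 8.42% were higher in anthers and 7.39% higher in ovules at an adjusted p under 0.05, and the 1 call and 2 calls among the 9 members are to be read against these shares. The split over all probe sets, 1447 higher in anthers and 1270 higher in ovules, was 2037 and 945 when the hybridization controls set the scale of the arrays and 1048 and 1594 with centred signals. The members were listed by the study for a genotype contrast and not for this one.

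DW236303, described as an alpha-expansin precursor, was higher in ovules. Its signal was 405 for 57-4 and 656 for Pima S-1 in anthers, against 1367 for 57-4 and 2639 for Pima S-1 in ovules. Both ovule arrays lay above both anther arrays. The log2 ratio of anthers to ovules was -1.88 ± 0.17 (SE), a signal 3.69-fold higher in ovules, with an adjusted p of 0.00011 (limma, Benjamini-Hochberg). Within 57-4 alone the log2 ratio was -1.76 and within Pima S-1 alone it was -2.01.

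Alpha-expansin 4 (DR455901) had the opposite pattern. Its signal was 2035 for 57-4 and 3019 for Pima S-1 in anthers, against 1002 for 57-4 and 1255 for Pima S-1 in ovules, so that both anther arrays lay above both ovule arrays. Its log2 ratio of anthers to ovules was 1.14 ± 0.17, a signal 2.21-fold higher in anthers, with an adjusted p of 0.0018 (limma). The ratio was 1.02 within 57-4 and 1.27 within Pima S-1. The log2 ratios of anthers to ovules of these 2 expansins lay 2.78 apart in 57-4 and 3.28 apart in Pima S-1, with no test of that distance.

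The remaining 3 alpha-expansins were brighter in anthers in each genotype, without passing the test. CO086920, which the array titles as similar to Arabidopsis EXPA15, had both anther arrays above both ovule arrays, and its log2 ratio was 0.70 ± 0.31 (adjusted p 0.16). Within 57-4 that ratio was 0.18, against 1.22 within Pima S-1. CO122608 and CO122609, both titled as similar to Arabidopsis EXPA6 and both from 1 sequence cluster of the array, had log2 ratios of 0.79 ± 0.28 (adjusted p 0.085) and 0.51 ± 0.17 (adjusted p 0.076, limma). The anther and ovule signals of these 2 probe sets overlapped once the genotypes were put together, since 57-4 anthers were dimmer than Pima S-1 ovules. Both passed when the hybridization controls set the scale, at 0.97 (adjusted p 0.048) for CO122608 and 0.68 (adjusted p 0.028) for CO122609.

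Among the xyloglucan transglycosylases, the endo-xyloglucan transferase DN826143 was the one with a tissue difference past the threshold. Its signal was 331 for 57-4 and 219 for Pima S-1 in anthers, against 1336 for 57-4 and 368 for Pima S-1 in ovules. Both ovule arrays lay above both anther arrays, and the 57-4 ovule array stood far above the rest. The log2 ratio of anthers to ovules was -1.38 ± 0.29, a signal 2.61-fold higher in ovules (adjusted p 0.012, limma), and it was -2.01 in 57-4 and -0.75 in Pima S-1. Without an intensity trend in the fit the adjusted p was 0.070. The identity of this probe set is less certain than that of the others, since the array titles its cluster as an Arabidopsis protein of unknown function, and the study described 2 further probe sets of the same cluster as a hypothetical protein (CD485682) and as an NRAMP transporter (DT467066).

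The XET DR455660 was nearly level across the arrays, at 375 for 57-4 and 328 for Pima S-1 in anthers, against 359 for 57-4 and 475 for Pima S-1 in ovules. Its log2 ratio of anthers to ovules was -0.24 ± 0.24 (adjusted p 0.55, limma). The XET precursor DT459646, titled as similar to Arabidopsis XTH9, was at 56.0 for 57-4 and 141 for Pima S-1 in anthers, and at 56.1 for 57-4 and 22.7 for Pima S-1 in ovules, so that the Pima S-1 anthers stood above the rest. Its ratio was 0.75 ± 0.37 (adjusted p 0.21, limma), a value set by the Pima S-1 arrays, since the ratio within 57-4 was -0.003. XET 1 (CO073294) was at 15.5 for 57-4 and 64.1 for Pima S-1 in anthers, and at 38.3 for 57-4 and 8.10 for Pima S-1 in ovules, so that 1 array of 4 was above 50 and the ratio of 0.18 ± 0.20 (adjusted p 0.58) rests on signals set to 50.

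**Figure D2:**
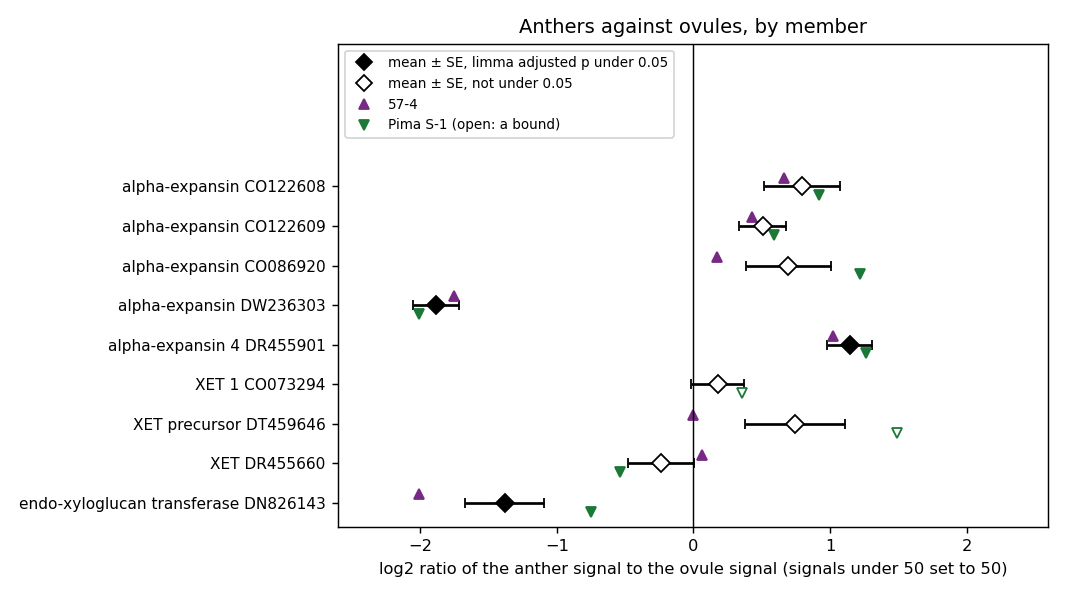
Log2 ratio of the anther signal to the ovule signal for each member, with diamonds for the mean over both genotypes ± SE (filled where the limma adjusted p was under 0.05), upward triangles for 57-4 and downward triangles for Pima S-1 (open where 1 signal was under 50). DR455901 lies at 1.14, and DW236303 and DN826143 lie at -1.88 and -1.38.

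Without regard to a test, both anther arrays lay above both ovule arrays for 2 members, against 36.7% of all probe sets tested, and both ovule arrays lay above both anther arrays for 2, against 19.8%. The signals of the other 5 members overlapped between tissues.

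Between the genotypes, most expansins were dimmer in 57-4. In anthers all 5 alpha-expansins had a lower signal in 57-4, by log2 ratios of -0.57 to -1.39, and in ovules 4 of 5 did. In anthers 3 of 9 members had a signal at least 2-fold lower in 57-4 and 0 had one at least 2-fold higher, and in ovules 1 of 8 measured was lower and 1 higher by that much. The shares among all measured probe sets were 2.71% lower and 1.59% higher in anthers, and 4.14% lower and 4.46% higher in ovules. When the hybridization controls set the scale, 6 members were lower in anthers and 3 in ovules by that much, and the shares among all were 11.3% lower and 0.483% higher in anthers and 12.1% lower and 1.29% higher in ovules. These shares are printed beside the counts and nothing is read from them, because the members are known by a description only through the study's own lists of genes called between the genotypes on these arrays. Of the 1375 described probe sets measured in anthers 72.1% were lower in 57-4 by any amount, against 49.8% of all measured probe sets, and of the 1393 measured in ovules 83.8% were lower, against 44.2%. The lower direction of the members is thus not independent evidence.

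CO122608 had the lowest anther ratio of the members with both anther signals at 50 or above. Its signal was 208 for 57-4 and 544 for Pima S-1 in anthers, 2.62-fold lower in 57-4, and 131 for 57-4 and 288 for Pima S-1 in ovules, 2.20-fold lower. The log2 ratios were -1.39 and -1.14. Of all probe sets measured, 0.66% in anthers and 2.86% in ovules had a lower ratio. The study listed CO122608 for both tissues from these same arrays, so nothing is read from this rank.

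Its same-cluster neighbour CO122609 moved with it. The signal was 628 for 57-4 and 1336 for Pima S-1 in anthers (log2 ratio -1.09, 2.13-fold lower), and 467 for 57-4 and 888 for Pima S-1 in ovules (-0.93, 1.90-fold lower). The ratios of these 2 probe sets lay 0.30 apart in anthers and 0.21 apart in ovules. They were the members most alike over the 4 arrays of those with a brightest signal of at least 200, and as probe sets of 1 cluster they may read the same transcripts. They are the only members on both of the study's lists as held here.

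DW236303, the alpha-expansin higher in ovules, was also dimmer in 57-4 in both tissues. From the signals above, its log2 ratio was -0.70 in anthers (1.62-fold lower) and -0.95 in ovules (1.93-fold lower). Alpha-expansin 4 (DR455901), higher in anthers, had ratios of -0.57 (1.48-fold lower) and -0.32 (1.25-fold lower). These 2 were listed by the study for ovules only. Their lower anther signal is not independent evidence either. Of the described probe sets measured in anthers 72.1% were lower in 57-4, against 49.8% of all measured. CO086920, in contrast, was on the anther list only, as far as the incomplete ovule list shows. Its signal was 261 for 57-4 and 493 for Pima S-1 in anthers (log2 ratio -0.92, 1.89-fold lower), and 231 for 57-4 and 212 for Pima S-1 in ovules (0.12, 1.09-fold higher, but -0.30 when the hybridization controls set the scale).

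The xyloglucan transglycosylases went different ways. DT459646 was 2.51-fold lower in 57-4 anthers (log2 ratio -1.33) and at least 1.12-fold higher in 57-4 ovules. The anther signal of CO073294 was lower in 57-4 by at least 1.28-fold, with both ovule signals under 50. DR455660 was 1.14-fold higher in 57-4 anthers (0.19, but -0.27 when the hybridization controls set the scale) and 1.32-fold lower in 57-4 ovules (-0.41). DN826143 was higher in 57-4 in both tissues, by 1.52-fold in anthers (0.60) and 3.63-fold in ovules (1.86), where 99.8% of all measured probe sets had a lower ratio. The study listed it for ovules from these same arrays, so nothing is read from this rank. No other member was counted as at least 2-fold higher in 57-4, but DT459646 has only a bound in ovules, and its log2 ratio there was 1.31 with no floor. The median log2 ratio of the 4 was -0.08 in anthers, and that of the 3 measured in ovules was 0.17, while the medians of the 5 alpha-expansins were -0.92 and -0.93. The medians of the xyloglucan transglycosylases rest on bounds and were -0.57 in anthers and 1.31 in ovules with no floor. The same medians over all measured probe sets lay at 0.002 for anthers and 0.06 for ovules.

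Of the 8 members measured in both tissues, 4 were lower in 57-4 in both, all of them alpha-expansins, against 29.6% of all probe sets measured in both tissues. Nothing is read from this count, since the members are described only through the study's genotype lists. Of the described probe sets 72.1% were lower in anthers and 83.8% in ovules. Of the 4, CO122608 and CO122609 may read the same transcripts. DN826143 was higher in both. The other 3 (CO086920, DT459646 and DR455660) went opposite ways in the tissues, against 39.4% of all probe sets.

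Where the study had not listed a member, the direction was mixed in anthers and higher in 57-4 for both members measured in ovules. In anthers 4 members were not on the anther list, and 2 of them were lower in 57-4 and 2 higher, none by 2-fold. In ovules 3 members were not on the ovule list held here, which is incomplete. The 2 of these with a signal of at least 50 were both higher in 57-4, against 55.6% of all measured probe sets. Both log2 ratios were small, at 0.17 for DT459646 (a bound) and 0.12 for CO086920, which was at -0.30 when the hybridization controls set the scale. Of the members listed for a tissue, 5 of 5 were lower in 57-4 anthers and 5 of 6 in 57-4 ovules. The shares among all measured probe sets were 49.8% in anthers and 44.2% in ovules. Listed members were chosen by this same contrast on these arrays, so nothing is read from these counts.

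**Figure D3:**
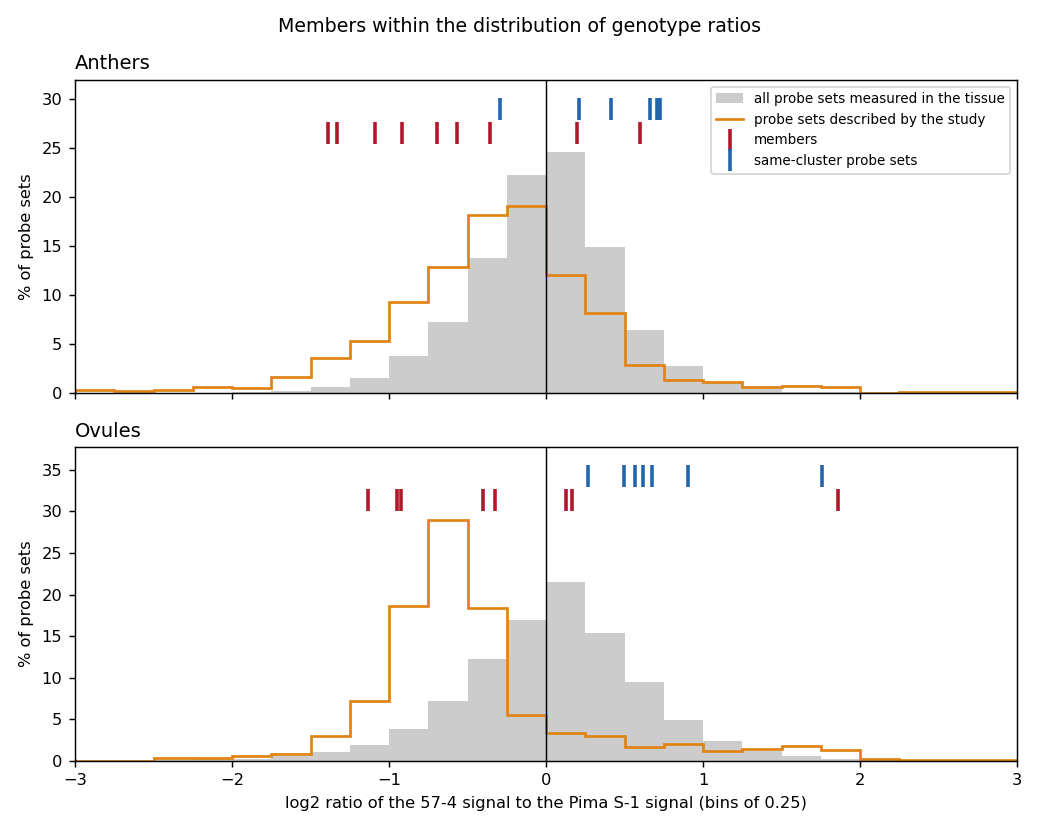
Distribution of the log2 ratio between genotypes, 57-4 over Pima S-1, in anthers (top) and ovules (bottom), as the percent of probe sets per bin, for all measured probe sets (grey) and for those the study described (orange line), with ticks for the members (red) and for other probe sets of their clusters (blue). The described probe sets lie below 0 in 72.1% of cases in anthers and 83.8% in ovules, while 5 of 6 blue ticks in anthers and 7 of 7 in ovules lie above 0 (3 of 6 and 6 of 6 when the hybridization controls set the scale).

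The array carries 7 further probe sets that share a sequence cluster with a member. Only 2 of them are on the study's lists as held here, both from the cluster of DN826143. The ovule list is incomplete, so whether the other 5 were listed for ovules is not known. In anthers 5 of the 6 measured were higher in 57-4, against 50.1% of all measured probe sets, and their median log2 ratio was 0.54. In ovules 7 of 7 were higher, against 55.6%, with a median of 0.62. When the hybridization controls set the scale, 3 of 6 were higher in anthers, against 15.8% of all measured probe sets, and 6 of 6 in ovules, against 26.3%. Outside the cluster of DN826143, itself higher in 57-4, 3 of 4 were higher in anthers (median 0.46) and 4 of 4 in ovules. The median of these ovule ratios was 0.53 and rests in part on bounds. For the 5 not on the lists held, 1 of 5 was lower in 57-4 anthers and 0 of 5 in 57-4 ovules. In the identifiers of the array the letters A and S mark the orientation in which the cluster's sequence was read, so a pair that differs in this letter may not detect the same strand. Among the members DR455901, DW236303 and CO073294 carry the letter A and the others the letter S, and the strand each detects was not checked. Whether the members and the 7 further probe sets detect the same transcripts was not tested.

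A further probe set of the EXPA6-like cluster, Gra.1563.2.A1_s_at, had a signal of 92.1 for 57-4 and 55.8 for Pima S-1 in anthers, and 60.2 for 57-4 and 35.5 for Pima S-1 in ovules. It was 1.65-fold higher in 57-4 anthers and at least 1.20-fold higher in 57-4 ovules, whereas CO122608, read from the other orientation of the same cluster sequence, was lower in both. The second probe set of the alpha-expansin 4 cluster, Ghi.704.1.S1_at, was at 141 for 57-4 and 172 for Pima S-1 in anthers, against 73.9 for 57-4 and 33.0 for Pima S-1 in ovules. It shared the anther pattern of DR455901, with a log2 ratio of anthers to ovules of 1.36 ± 0.40 (adjusted p 0.048, limma). Between genotypes its 57-4 signal was the lower one in anthers, by 1.22-fold, and the higher one in ovules, by at least 1.48-fold.

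For the second probe set of the XTH9-like cluster, Ghi.5744.2.S1_s_at, the signal was 6429 for 57-4 and 5571 for Pima S-1 in anthers, against 2089 for 57-4 and 1483 for Pima S-1 in ovules. It was 3.40-fold higher in anthers, a log2 ratio of 1.77 ± 0.18 (adjusted p 0.00025, limma), while the ratio of DT459646 from that cluster did not pass the test. Its log2 ratio between genotypes was 0.21 in anthers and 0.49 in ovules. For the cluster of XET 1, Gra.1117.1.S1_at gave 156 for 57-4 and 95.8 for Pima S-1 in anthers, and 76.8 for 57-4 and 19.3 for Pima S-1 in ovules. It was 1.63-fold higher in 57-4 anthers and at least 1.54-fold higher in 57-4 ovules, the other way from CO073294 in anthers.

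The brighter probe sets of the DN826143 cluster had ratios of the same direction, though not of the same size. Ghi.9194.3.S1_x_at (CD485682) had 625 for 57-4 and 396 for Pima S-1 in anthers, and 2053 for 57-4 and 608 for Pima S-1 in ovules, log2 genotype ratios of 0.66 and 1.76. Its log2 ratio of anthers to ovules was -1.17 ± 0.25 (adjusted p 0.012, limma). Unlike for DN826143, its tissues overlapped, since 57-4 anthers (625) lay above Pima S-1 ovules (608). Ghi.9194.2.A1_x_at, not on the lists held, had ratios of 0.41 and 0.90 and a log2 ratio of anthers to ovules of -0.75 ± 0.36 (adjusted p 0.20, limma). Ghi.9194.3.A1_at (DT467066) was under 50 on both anther arrays and at 79.9 for 57-4 and 25.1 for Pima S-1 in ovules, at least 1.60-fold higher in 57-4.

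**Figure D4:**
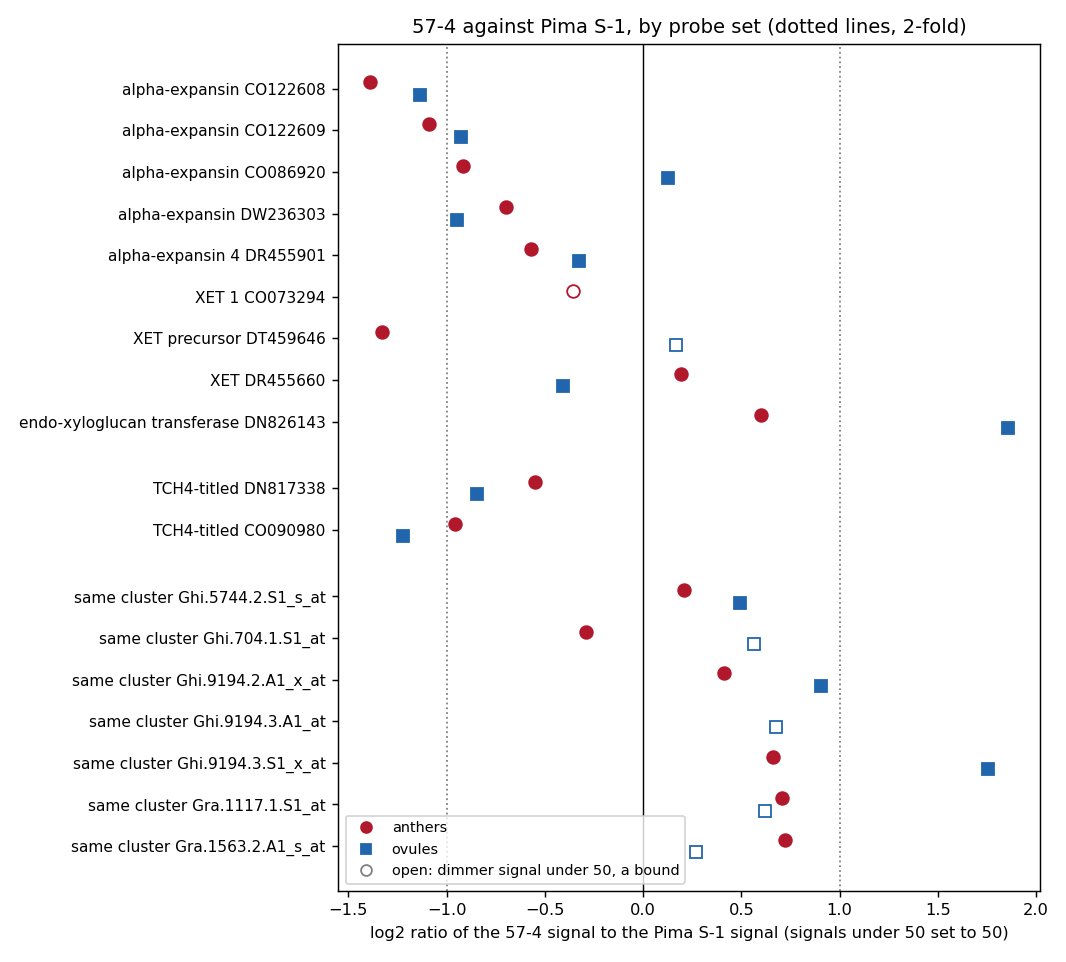
Log2 ratio of signals, 57-4 over Pima S-1, in anthers (red circles) and ovules (blue squares) for the 9 members, the 2 TCH4-titled probe sets and the 7 further probe sets of the members' clusters, with open symbols where the dimmer signal was under 50 and dotted lines at 2-fold. Alpha-expansin CO122608 lies below -1 in both tissues, and DN826143 and Ghi.9194.3.S1_x_at lie above 1 in ovules.

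Another pair of probe sets of the study's lists is titled by the array as similar to TCH4, a touch-induced XET of Arabidopsis, but was described by the study as syringolide-induced protein 19-1-5 and so is not among the 9. DN817338 had 148 for 57-4 and 217 for Pima S-1 in anthers, and 411 for 57-4 and 737 for Pima S-1 in ovules. CO090980 had 124 for 57-4 and 240 for Pima S-1 in anthers, and 251 for 57-4 and 585 for Pima S-1 in ovules. Both were brighter on each ovule array than on each anther array, with log2 ratios of anthers to ovules of -1.62 ± 0.25 (adjusted p 0.0024) and -1.15 ± 0.28 (adjusted p 0.021, limma). Their genotype ratios were -0.55 and -0.96 in anthers and -0.84 and -1.22 in ovules, so that both were dimmer in 57-4 in each tissue. The study listed DN817338 for ovules and CO090980 for both tissues.

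Other genes of wall growth were counted from lists of words in the descriptions. Of 15 probe sets for pectinesterases, glucanases, beta-galactosidases, a xylosidase and extensins, 12 were measured in anthers, where 1 was lower in 57-4 by 2-fold or more and 0 were higher (median -0.41). In ovules 13 were measured, with 3 lower and 1 higher (median -0.53). Of all measured probe sets 2.71% were that much lower and 1.59% higher in anthers, and 4.14% lower and 4.46% higher in ovules. All 15 were described through the same lists as the members, so nothing is read from these counts. By tissue, 1 of 14 tested was higher in anthers and 2 in ovules, against 8.42% and 7.39% of all probe sets tested. Pectinesterase-3 (CO127914), which removes methyl groups from pectin, was 4.00-fold higher in ovules (adjusted p 0.0026, limma), at 79.7 for 57-4 and 152 for Pima S-1 in anthers, against 366 for 57-4 and 530 for Pima S-1 in ovules. Another pectinesterase (DT547464) was 2.10-fold higher in anthers (adjusted p 0.0043, limma), so these 2 pectinesterases had their higher signal in different tissues. The plasma membrane H+-ATPase (AI727991), which acidifies the wall, was 1.34-fold lower in the anthers of 57-4 and 1.99-fold lower in its ovules. It too is known by a description only through the study's genotype lists, so nothing is read from its direction.

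Gibberellin promotes cell extension, and DELLA proteins hold back its response. Of 4 probe sets for gibberellin genes, 2 of 3 measured were at least 2-fold higher in 57-4 anthers and 1 of 4 in 57-4 ovules, and none was 2-fold lower. Of all measured probe sets 1.59% were that much higher in anthers and 4.46% in ovules, and these genes too are known by a description only through the study's genotype lists. The DELLA protein GAI (DT468888) had 556 for 57-4 and 160 for Pima S-1 in anthers, and 954 for 57-4 and 304 for Pima S-1 in ovules, log2 ratios of 1.80 and 1.65. A second DELLA protein GAI (DW235285) had ratios of -0.34 and -0.50, so these 2 paralogues differed in direction too. A gibberellin regulated protein (DR460630) was 3.41-fold higher in ovules by tissue (adjusted p 0.0018, limma), with genotype ratios of 1.70 in anthers and 0.49 in ovules.

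For each member with a signal of at least 200 on some array, the most alike of 1130 described probe sets was found by the Euclidean distance between the 4 log2 signals after the mean of each probe set was subtracted. The nearest to DW236303 was a glyceraldehyde 3-phosphate dehydrogenase (AI055303), at a distance of 0.16. The nearest to DN826143 was WRKY transcription factor 6 (DT463720), at 0.19, with 404 for 57-4 and 290.0 for Pima S-1 in anthers, and 1786 for 57-4 and 539 for Pima S-1 in ovules. CO122609 was most like a splicing factor SR1B (DT544457), at 0.15, and CO122608 most like glucosyltransferase-11 (DT048637), at 0.19. DR455660 was most like an S-adenosylmethionine synthetase (DR455044), at 0.10. Between members the distance was 0.38 for CO122608 and CO122609, and these distances rest on 4 arrays.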

How the data were processed

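Anthers and ovules of 57-4 and Pima S-1 were measured on 4 Affymetrix Cotton Genome arrays, 1 per condition, whose number limits precision. The deposited values are intensities on a linear scale, which the authors obtained as MAS5 signals (version not given in the sources used here), with the mean of each array, without the lowest and highest 2% of values, at 250.1. Left out were 103 control probe sets, except for quality checks. Descriptions and GenBank sequences came from the study's supplementary lists. The log ratios of these lists were used only to check the labels. Their change calls enter only through which probe sets have a description. The ovule list is held in part, and for all of its 1414 probe sets the signals under the headings 57-4 and Pima S-1 are exchanged against the deposited table (tolerance 0.05). The deposited labels were used, and they give the sign of the listed log ratio for 5 of 5 members held there.

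Signals under 50 were set to 50 and log2 ratios taken within each tissue. Tissues were compared with limma 3.58.1 in R 4.3.3 (tissue and genotype as terms, intensity trend, Benjamini-Hochberg over the 17179 probe sets that reached 50 on some array), whose residual holds the tissue-by-genotype interaction and array error. Alternatives were other floors, scalings and thresholds, single-transcript probe sets only, exchanged ovule columns, no intensity trend, no filter on dim probe sets, and each genotype alone. A ratio counted as moved when it changed by 0.33 or more on the log2 scale, the square root of 2 times the prior SD of the limma fit.

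Named were every member, the other probe sets of their clusters, 2 probe sets titled TCH4, the most alike described probe set, up to 3 of the largest ratios per gene list and comparison, the H+-ATPase, and E6-4, which was picked after its values were seen. The members and lists were chosen with earlier results of these data known.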

Additional observations from a re-analysis of the deposited data

Results flagged for a closer look

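For 3 members the 57-4 and Pima S-1 signals stood in opposite order in the tissues. The gap between the log2 genotype ratios, anthers minus ovules, was -1.495 for the XET precursor DT459646, whose Pima S-1 ovule signal was under 50. It was -1.042 for the alpha-expansin CO086920 and 0.60 for the XET DR455660. When the hybridization controls set the scale, CO086920 (-1.39 in anthers and -0.30 in ovules) and DR455660 (-0.27 and -0.83) were lower in 57-4 in both tissues, so that their opposite order was lost. With 1 array per condition these differences were not tested, and 39.4% of all probe sets measured in both tissues had ratios of opposite sign.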

How the results depend on the processing

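Of the alternatives computed for counts and medians 40 left the value near the reported one, 17 moved it and 2 turned its sign. A count was taken as near when it was equal or within 1.5-fold, so members could still cross the threshold. Without a floor, for example, 4 members were at least 2-fold lower in anthers against 3 reported. The 40 include counts of 0 that stayed at 0. With the arrays set on the hybridization controls, which lowered the median ratio of all probe sets to -0.43 in anthers and -0.35 in ovules, 6 members were at least 2-fold lower in anthers (median -1.17) and 3 in ovules (median -0.83), against 11.3% and 12.1% of all measured probe sets. DR455660 was then at -0.27 in anthers and CO086920 at -0.30 in ovules, and 3 members were higher in anthers than in ovules. With single-transcript probe sets only, 1 member was lower in anthers, 0 were lower and 0 higher in ovules (median 0.17), and 0 and 0 passed the tissue test, since 2 members are left. At a log2 threshold of 1.5, 0 were lower in either tissue. Without a floor 2 were higher in ovules, and with centred ratios 2 were lower. With the ovule columns exchanged every ovule ratio turned, to a median of 0.37, with DT459646 at -0.17, DR455901 at 0.32, DR455660 at 0.41, DN826143 at -1.86, DW236303 at 0.95, CO122609 at 0.93 and CO122608 at 1.14.

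In the tissue fit without an intensity trend 1 member was higher in ovules. Without a filter on dim probe sets 0 and 0 passed, as did 0 of all 24029 probe sets, of which 3275 had an unadjusted p under 0.05 (limma). That setting adds probe sets held at the floor on all arrays, which have no spread. Over the other alternatives the adjusted p was at most 0.016 for DW236303 and 0.041 for DR455901, and 0.0016 to 0.070 for DN826143. Within 57-4 alone the log2 ratio of anthers to ovules was -0.0026 for DT459646 and 0.063 for DR455660, and within Pima S-1 alone it was 1.49 and -0.54. The cause of these changes was not tested beyond what is stated. The tissue fit pairs anthers with ovules within a genotype through its genotype term. Between the genotypes within a tissue, no paired analysis was possible because each condition has 1 array. Dim signals limit the values of CO073294 and DT459646.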
